A study of Mus musculus and Homo sapiens with 20 samples.

Results

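The regions described here are 7972 stretches of 1 kb on chromosomes 1 to 19 of the mouse genome that H2AK119ub peaks covered to at least 50% in haematopoietic stem and progenitor cells (HSPCs) of wild-type (WT) mice and to under 50% in those of Tet2-knockout (KO) mice. They were chosen by the peak lists themselves. A 1-kb bin was called marked in a library when peaks covered at least 50% of it, and a lost bin was marked in both Tet2-WT libraries and in neither Tet2-KO library. Lost bins made up 2.70% of the 295373 bins marked in any of the 4 libraries, out of 2462736 bins in all, and 8.73% of the 91351 bins marked in both WT libraries. Because the H2AK119ub lists chose the bins, their H2AK119ub values are given below as a description, with no test.

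The study profiled chromatin by CUT&Tag, a method in which an antibody to a histone mark brings a transposase to the marked chromatin, so that the DNA there is cut, tagged and sequenced. The HSPCs were bone marrow cells without lineage markers and with c-Kit, separated on magnetic beads. They came from Tet2-WT C57BL/6 mice and Tet2-/- mice, both 6 to 8 weeks old. The methods give the Tet2-/- mice more than 6 generations of backcrossing to C57BL/6 and state that males and females were used. Each genotype had 2 H2AK119ub and 2 H3K27me3 libraries, as did cultured Tet2-WT and Tet2-KO mouse embryonic stem (mES) cells. The sources used here do not say how many mice went into an HSPC library or whether the mES lines are single clones, so the spread between 2 libraries may be technical and p-values measure that spread alone.

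H2AK119ub is a single ubiquitin attached to histone H2A. Polycomb repressive complex 1 adds it and the BAP1 deubiquitinase complex, with which MBD5 and MBD6 associate, removes it. H3K27me3 is the mark of Polycomb repressive complex 2, and both marks are known for keeping developmental genes silent at CpG-rich promoters. TET2 oxidises 5-methylcytosine, and its loss in blood stem cells is known for promoting self-renewal and myeloid disease.

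A few lost regions show what sequence was involved. They are the central 240 bases of a lost bin, from the GRCm38.p6 reference (the mm10 build of the files), plus strand, with every CpG in capitals. All were picked from windows free of annotated exons. The Fli1 and Nfkbia bins were picked after their values were seen, and the others belong to the longest runs of lost bins or to a promoter that lost its whole mark. A promoter label is the annotation of the whole 1-kb bin, and the printed Muc3 stretch may itself lie outside the promoter.
Fli1 intron, chr9:32504381-32504620: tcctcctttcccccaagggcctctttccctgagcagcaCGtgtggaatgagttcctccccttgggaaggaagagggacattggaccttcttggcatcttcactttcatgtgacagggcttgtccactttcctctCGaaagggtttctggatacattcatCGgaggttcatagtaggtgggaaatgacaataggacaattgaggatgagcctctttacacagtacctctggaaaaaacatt
Nfkbia, chr12:55491381-55491620: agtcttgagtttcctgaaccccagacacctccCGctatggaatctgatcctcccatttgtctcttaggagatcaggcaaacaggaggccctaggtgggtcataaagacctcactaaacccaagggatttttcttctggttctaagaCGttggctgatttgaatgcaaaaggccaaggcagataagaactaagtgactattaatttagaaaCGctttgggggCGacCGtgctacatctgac
Klrb1c promoter, chr6:128789381-128789620: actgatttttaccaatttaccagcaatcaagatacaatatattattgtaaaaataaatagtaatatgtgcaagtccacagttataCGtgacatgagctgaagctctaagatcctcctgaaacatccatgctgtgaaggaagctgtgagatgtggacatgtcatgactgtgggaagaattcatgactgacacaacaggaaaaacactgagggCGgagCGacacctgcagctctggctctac
Muc3 promoter, chr5:137150381-137150620: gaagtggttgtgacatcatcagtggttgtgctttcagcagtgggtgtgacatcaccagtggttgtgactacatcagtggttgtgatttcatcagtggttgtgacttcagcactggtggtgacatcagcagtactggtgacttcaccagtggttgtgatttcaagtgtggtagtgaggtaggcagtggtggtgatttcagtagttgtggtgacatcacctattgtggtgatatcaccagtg
Intergenic, chr17:36132381-36132620: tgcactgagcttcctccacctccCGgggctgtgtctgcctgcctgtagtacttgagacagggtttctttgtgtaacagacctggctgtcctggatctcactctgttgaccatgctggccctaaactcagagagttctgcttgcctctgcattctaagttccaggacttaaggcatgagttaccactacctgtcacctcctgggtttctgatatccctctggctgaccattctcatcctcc

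CpG content varied among these stretches. The Muc3 stretch has 0 CpGs, the intergenic stretch 1, the Fli1 and Klrb1c stretches 3 each and the Nfkbia stretch 5. The whole 1-kb bins hold 1 CpG at Muc3, 5 at Klrb1c, 7 at the intergenic site, 19 in Fli1 and 34 in Nfkbia. Over all lost bins the median was 12 CpGs per kb, with quartiles of 9 and 16, against 17 in the 66179 bins marked in all 4 libraries (retained bins) and 7 over all autosomal bins. The median GC content was 48.8%, against 53.5% in retained bins. Bases soft-masked as repeats made up 22.3% of lost bins, 13.5% of retained bins and 32.6% of the autosomes. Bins marked by 1 WT and 1 KO library only (the 4 mixed sets) had the same median of 12 CpGs, a GC content of 48.6% to 49.4% and soft-masked shares of 18.6% to 24.2%, so the lost bins did not stand apart from them in sequence.

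In the lost bins, peaks covered a median 67.6% and 66.2% of the bin in the 2 WT libraries, and 0% and 0.4% in the KO libraries. Most losses were partial in space. The libraries are from bulk cells, so a mark on fewer cells and less of it on each cell cannot be told apart. Both KO libraries were at 0% in 2845 lost bins (35.7%), and the WT peaks over 2112 bins (26.5%) touched no KO peak anywhere along their length. The mixed sets gave 33.0% to 39.0% and 24.3% to 28.7% for the same measures, a range that holds both lost values. In the remainder a KO peak lay under or beside the WT peak and covered less of the bin. The rule's threshold matters, because 38.7% to 41.4% of the peaks in these lists were exactly 501 bp wide, and such a peak covers 50.1% of a bin when it lies inside it. In 2950 lost bins (37.0%) the lower of the WT coverages was at most that of 1 such peak. Just outside the threshold, 418 bins had a lower WT coverage from 49 to under 50%, and 3098 lost bins lay from 50 to under 51%. On the KO side, 296 lost bins had a higher KO coverage from 49 to under 50%, and 2688 bins marked in both WT libraries were left out with one from 50 to under 51%. The clearest losses, at least 90% covered in both WT libraries and 0% in both KO libraries, numbered 124. Under a stricter rule, fully covered in both marking libraries and 0% in the others, lost bins numbered 76. The mixed sets gave 38 to 171 by that rule, a range that holds the lost count, and bins marked by the KO libraries only gave 238.

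**Figure D1:**
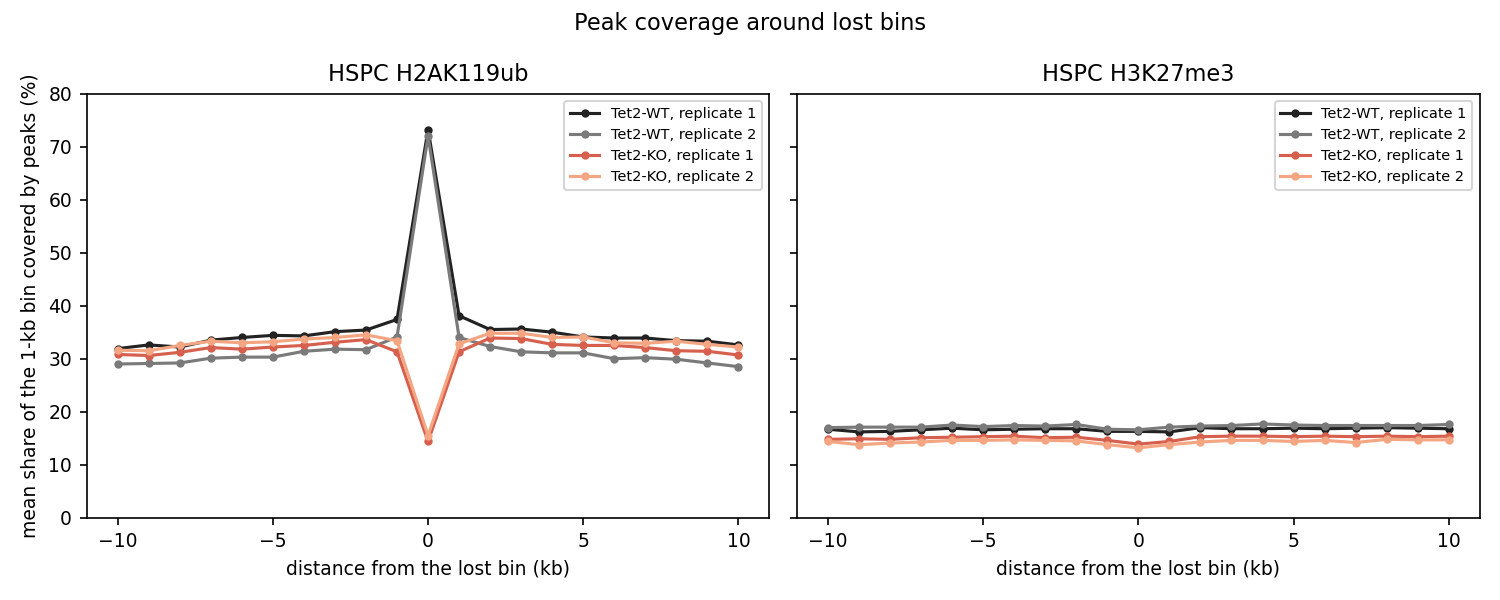
Mean share of 1-kb bins covered by peaks (y axis, %) at distances of up to 10 kb from the 7972 lost bins (x axis, kb), for H2AK119ub (left) and H3K27me3 (right) in each HSPC library; each line is 1 library. H2AK119ub differs at the bin that the rule selected and the libraries lie between 28.5% and 32.6% at a distance of 10 kb, while the H3K27me3 lines run between 13.2% and 17.7%, with both WT lines above both KO lines.

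The difference was narrow, as it was in the mixed sets. At the lost bin, mean coverage was 73.2% and 72.0% in WT and 14.4% and 15.5% in KO, values that the rule fixes. In the next bin towards the chromosome start, the WT libraries were at 37.4% and 34.1%, and the KO libraries at 31.3% and 33.4%. At 10 kb on that side, the WT values of 31.9% and 29.0% and the KO values of 30.8% and 31.6% overlapped. Of the lost bins, 7584 had no lost neighbour, 179 runs were 2 kb long and 10 runs were 3 kb long. A retained bin lay next to 1894 lost bins (23.8%), against 20.7% to 25.4% in the mixed sets. In the mixed sets the 2 marking libraries had 71.5% to 73.7% at the bin and 33.6% to 37.6% in the next bin towards the chromosome start.

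The question that the design raises is whether WT against KO gives more of these bins than other ways of pairing 4 libraries. The reverse set, gained bins, which only the KO libraries marked, numbered 14058, or 4.76% of marked bins. Bins shared by 1 WT and 1 KO library only were 11355 for WT1 with KO1 (3.84%), 13215 for WT1 with KO2 (4.47%), 6645 for WT2 with KO1 (2.25%) and 7600 for WT2 with KO2 (2.57%). The 7972 lost bins were the fourth of these 6 counts from the top, within the range of the mixed pairs. They outnumbered both mixed pairs that include WT2, the shortest list with 112734 peaks, and were fewer than both that include WT1, with 133202. The count of lost bins is thus near the background of library-to-library differences. It was also the fourth in the other 7 constructions of bins and lists, chosen after the data were seen, including lists limited to the length of the shortest, where 7912 lost bins stood beside 12758 gained bins.

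**Figure D2:**
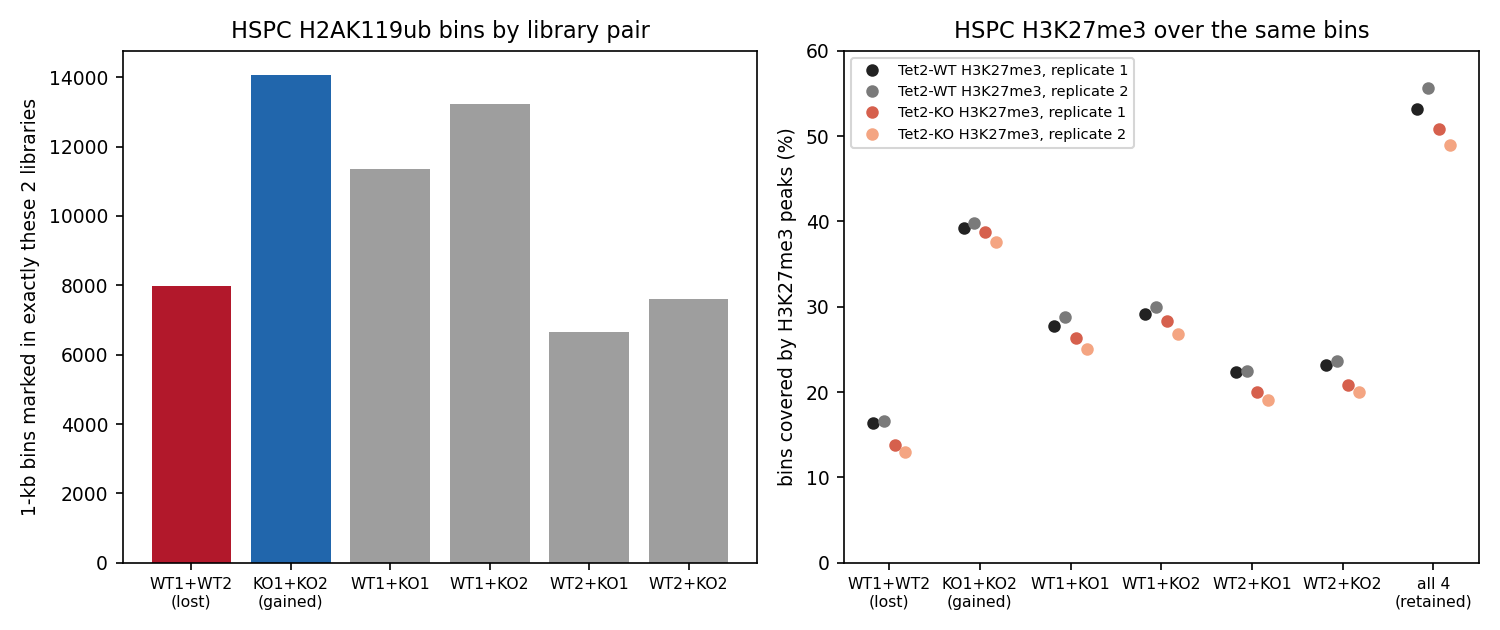
Left, number of 1-kb bins marked by H2AK119ub in exactly 2 of the 4 HSPC libraries (y axis), by the pair that marks them (x axis); right, percentage of the same bins and of the retained bins marked by H3K27me3 in each HSPC H3K27me3 library (points). The 7972 lost bins sit within the range of the 4 mixed pairs in number and below all of them in H3K27me3, at 13% to 16.6%.

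H3K27me3 in the same cells, which the rule did not use, set the lost bins apart from the other sets in level. H3K27me3 marked 16.4% and 16.6% of lost bins in the WT libraries. In the 4 mixed sets the share ranged from 22.3% to 29.1% in WT replicate 1 and from 22.5% to 30.0% in WT replicate 2. Gained bins had 39.2% and 39.8%, and retained bins 53.2% and 55.6%. So lost bins were the poorest in the other Polycomb mark and gained bins the richest of the 6 sets, and no H3K27me3 library marked 6083 lost bins (76.3%) against 7111 gained bins (50.6%). Averaged over both WT libraries, lost bins were at 16.5% against at least 22.4% in the mixed sets, and they stayed lowest in all 7 other constructions, at 13.6% to 17.1% against mixed sets that began at 19.1% to 22.9%. This difference between sets of bins is a description. It was not tested over libraries, since the same 4 H2AK119ub lists define all sets.

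Between genotypes, H3K27me3 marked 13.8% and 13% of lost bins in the KO libraries, a mean of 13.4% ± 0.523 (SD, n = 2) against 16.5% ± 0.177 in WT, and the 2 groups did not overlap. The difference was -3.10 percentage points (p = 0.33 in an exact, two-sided permutation test, where 2 against 2 libraries allow none smaller, and 0.67 after Benjamini-Hochberg adjustment over 6 tests). Retained bins were also lower in KO, at 50.8% and 49%. The gap between lost and retained bins was -37.9 ± 1.54 percentage points in WT and -36.5 ± 0.752 in KO, a difference of 1.36 (exact permutation test, p = 0.67, adjusted p = 0.67). With 2 against 2 libraries this test cannot decide whether the lost bins dropped further than the retained bins. Taken as a ratio of the shares, the same comparison changed sign, to -0.0352.

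Some lost bins lost both marks. Of the 948 lost bins with H3K27me3 in both WT libraries, 115 (12.1%) had it in neither KO library. Over all autosomal bins with H3K27me3 in both WT libraries the share was 6.34%, over retained bins 5.40%, over the 4 mixed sets 6.27% to 7.57% and over gained bins 3.77%. The difference was not tested. The 1-Mb window with the most such bins was 171000001 to 172000000 on chromosome 1, with 6.

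In mES cells, peaks of H2AK119ub marked 45.3% and 42.8% of the HSPC lost bins in the WT libraries and 43.7% and 39.5% in the KO libraries. The groups overlapped, with means of 44.0% ± 1.78 and 41.6% ± 2.97 (SD, n = 2 each), and the difference of -2.45 percentage points did not pass (exact permutation test, p = 0.67, adjusted p = 0.67). No mES H2AK119ub library marked 3073 lost bins (38.5%), and all 4 marked 2020 (25.3%), against 71.8% of retained bins. The level in lost bins was close to that in the mixed sets with WT2, at 44.7% and 45.5% in mES WT replicate 1, and below that in the mixed sets with WT1, at 56.1% and 57.4%. Retained bins had 83.7% in that library. Relative to retained bins, the KO minus WT difference was -1.87 percentage points (exact permutation test, p = 0.67, adjusted p = 0.67).

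The same bins were mostly not lost in mES cells. Of the 2760 lost bins marked in both WT mES libraries, 242 (8.77%) were marked in neither KO mES library, against 7.68% of all autosomal bins marked in both WT mES libraries. Gained bins had 5.14%, mixed sets 5.23% to 7.56% and retained bins 1.74%. The 242 bins are 3.04% of the HSPC lost bins and 1.62% of the 14952 mES lost bins. On chromosome 13, 2 adjoining windows (112000001 to 114000000) held 7 and 4 of them, and 173 and 280 of the mES lost bins. Without chromosomes 6 and 13 the share was 7.80%, with mixed sets at 4.81% to 7.22%. Windows with 7 and 4 bins lost in both cell types lay at 171000001 to 172000000 on chromosome 1 and 36000001 to 37000000 on chromosome 17.

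H3K27me3 in mES cells marked 23.4% and 27.5% of lost bins in WT and 23.5% and 16.5% in KO. The difference was -5.49 percentage points, with overlapping groups (25.5% ± 2.89 and 20% ± 4.98, SD, n = 2 each; exact permutation test, p = 0.67, adjusted p = 0.67). The low value came from KO replicate 2, the shortest of these lists with 102382 peaks. Relative to retained bins the difference was 2.69 percentage points, with non-overlapping groups (exact permutation test, p = 0.33, adjusted p = 0.67), and as a ratio it changed sign, to -0.0359. In neither cell type did these 6 tests reach a threshold of 0.05, which the design cannot. In level, lost bins had the least H3K27me3 of the 6 sets in mES cells too. The mixed sets had 26.8% to 36.6% in mES WT replicate 1, gained bins 41.8% and retained bins 49.9%.

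Lost bins lay mainly inside genes and away from promoters. Promoters, taken as 1 kb on each side of the start of a protein-coding gene, held 455 lost bins (5.71%), exons 1883 (23.6%), introns 2718 (34.1%), non-coding genes 499 (6.26%) and intergenic sequence 2417 (30.3%). Promoters held 11% of gained bins, 6.61% to 7.58% of the mixed sets, 23.6% of retained bins and 2.37% of all autosomal bins. Exons held 17.9% of gained bins and 20% to 21.3% of the mixed sets. The lost set thus had the lowest promoter share and the highest exon share of the 6 sets, as counts with no test. The median distance to the nearest start was 14764 bp, within the 13951 to 18932 bp of the mixed sets, with 17261 bp in gained bins and 6550 bp in retained bins.

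**Figure D3:**
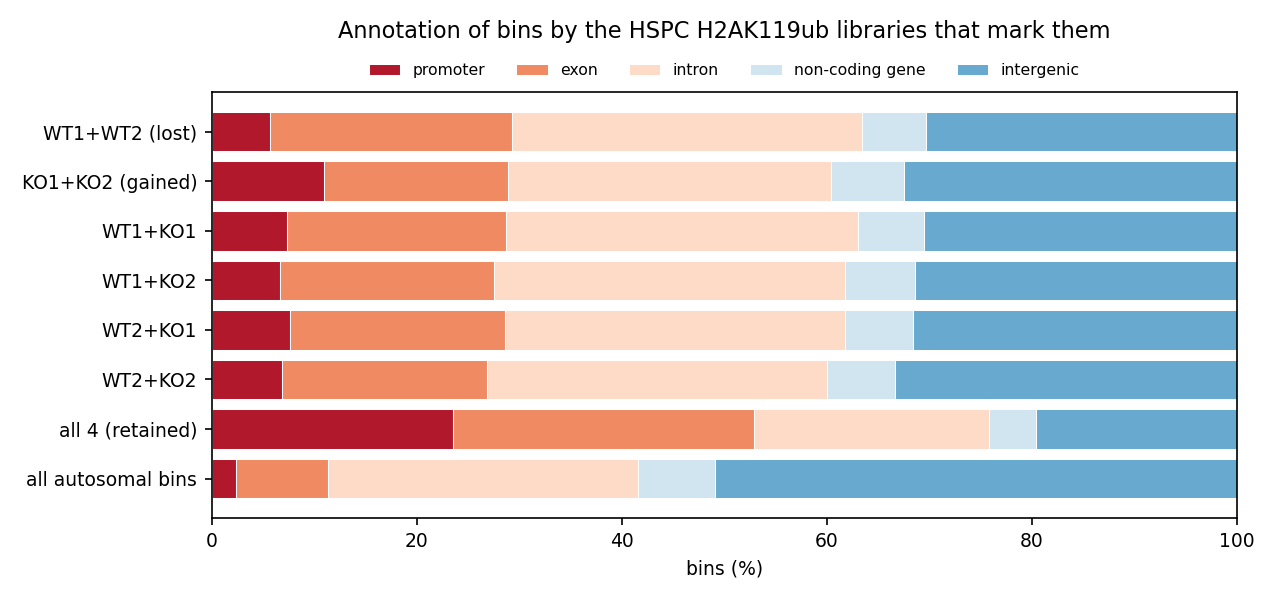
Percentage of bins (x axis) in promoters, exons, introns, non-coding genes and intergenic sequence, by the HSPC H2AK119ub libraries that mark them (rows). Promoters hold 5.71% of lost bins, the smallest share among the 6 library pairs, and 23.6% of retained bins.

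Lost bins touched the promoters of 495 of 20807 protein-coding genes, and gained bins those of 1560. A marked bin lay in 16974 of these genes. Genes were not counted in this way for the mixed sets. In bins, promoters held 455 lost bins, 504 to 873 bins of each mixed set and 1542 gained bins, so the lost set had the fewest. Of the 495, 6 promoters held a bin at 90% or more in both WT and 0% in both KO libraries. Klrb1c, which encodes a receptor of natural killer cells, had 62.6% and 84.6% of its 2-kb promoter covered in WT and 0% in both KO libraries, without H3K27me3 in any HSPC library. Hamp2, a relative of the iron hormone hepcidin, had 77.0% and 58.3% in WT and 0% in KO. Btbd18 had 56.4% and 63.9% in WT and 0% in KO. Sephs1, a selenophosphate synthetase, had 41.4% and 37.0% in WT and 0% in KO. The 2 others kept peaks elsewhere in the promoter in KO. Rack1, which encodes a ribosome-bound scaffold, had 77.5% and 58.5% in WT against 68.3% and 38.2% in KO, and Riox1 had 49% and 100% against 67.5% and 60%.

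The 10 runs of 3 kb are the widest losses. The run with the largest mean difference between genotypes was intergenic on chromosome 17 (36131001 to 36134000), 3076 bp from the start of Gm7030, and was covered to 100% in both WT libraries and 3.63% and 16.7% in KO. It held almost no H3K27me3 in HSPCs, at 2.57% or less. In mES cells the direction was the opposite. H2AK119ub covered 56.0% and 55.3% of the run in the WT libraries and 77.7% and 69.0% in the KO libraries, and H3K27me3 covered 0% and 4.8% against 72.0% and 86.0%. The run across the promoter of Muc3, an intestinal mucin gene, on chromosome 5 (137149001 to 137152000) had 92.9% and 86.8% in WT and 0% and 23.4% in KO. HSPC H3K27me3 covered 75.8% and 16.7% of it in WT and 0% in both KO libraries, and neither mark covered any of it in an mES library. Other runs lay in introns of Nadk, which makes NADP, over exons of Arhgef18, Sugp2 and Trpc4ap, and across an exon of Plekha7. In Arhgef18 the mES libraries were covered to 75.1% to 100% in both genotypes, while HSPC coverage was 59.5% and 70.1% in WT and 5.23% and 0% in KO.

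At least 1 lost bin lay in 3614 of the 16974 protein-coding genes with a marked bin (21.3%), and at least 1 gained bin in 5117 (30.1%). At least 3 lost bins lay in 364 genes (2.14%), against 816 genes with at least 3 gained bins and 242 to 829 in the mixed sets. Genes with several lost bins were long and widely marked, with a median length of 94.2 kb against 21.6 kb for all genes with a marked bin, and a median of 48 marked bins against 7. Genes with at least 3 gained bins were as long, with a median of 100 kb. Of the 364 genes, 250 had more lost than gained bins and 84 had no gained bin. The highest count of lost bins in a gene was 67, and that gene is not among the 250.

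Hlcs, which encodes the ligase that attaches biotin to carboxylases, had the most lost bins of these 250, 14 of its 95 marked bins, with 3 gained (chromosome 16, 94128882 to 94313571). Of these, 11 lay in introns, 2 over exons and 1 in the promoter. At the promoter bin, coverage was 100% and 89.3% in WT and 6.40% and 45.0% in KO. Across the whole gene the libraries overlapped, with 29.0% and 23.0% covered in WT and 19.7% and 25.1% in KO. Single bins were lost while the gene as a whole kept much of its mark.

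Runx1, a transcription factor needed to form blood stem cells, had 10 lost bins of 98 marked and 5 gained (chromosome 16, 92601466 to 92826149). Peaks covered 21% and 26.9% of the gene in WT and 16.9% and 18.4% in KO, so the groups did not overlap. Its clearest loss, 107648 bp from the start, was covered to 100% in both WT libraries and 0% and 27% in KO. HSPC H3K27me3 covered at most 2.79% of the gene in any library. In mES cells H2AK119ub covered 47.1% to 49.5% of it in all 4 libraries.

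**Figure D4:**
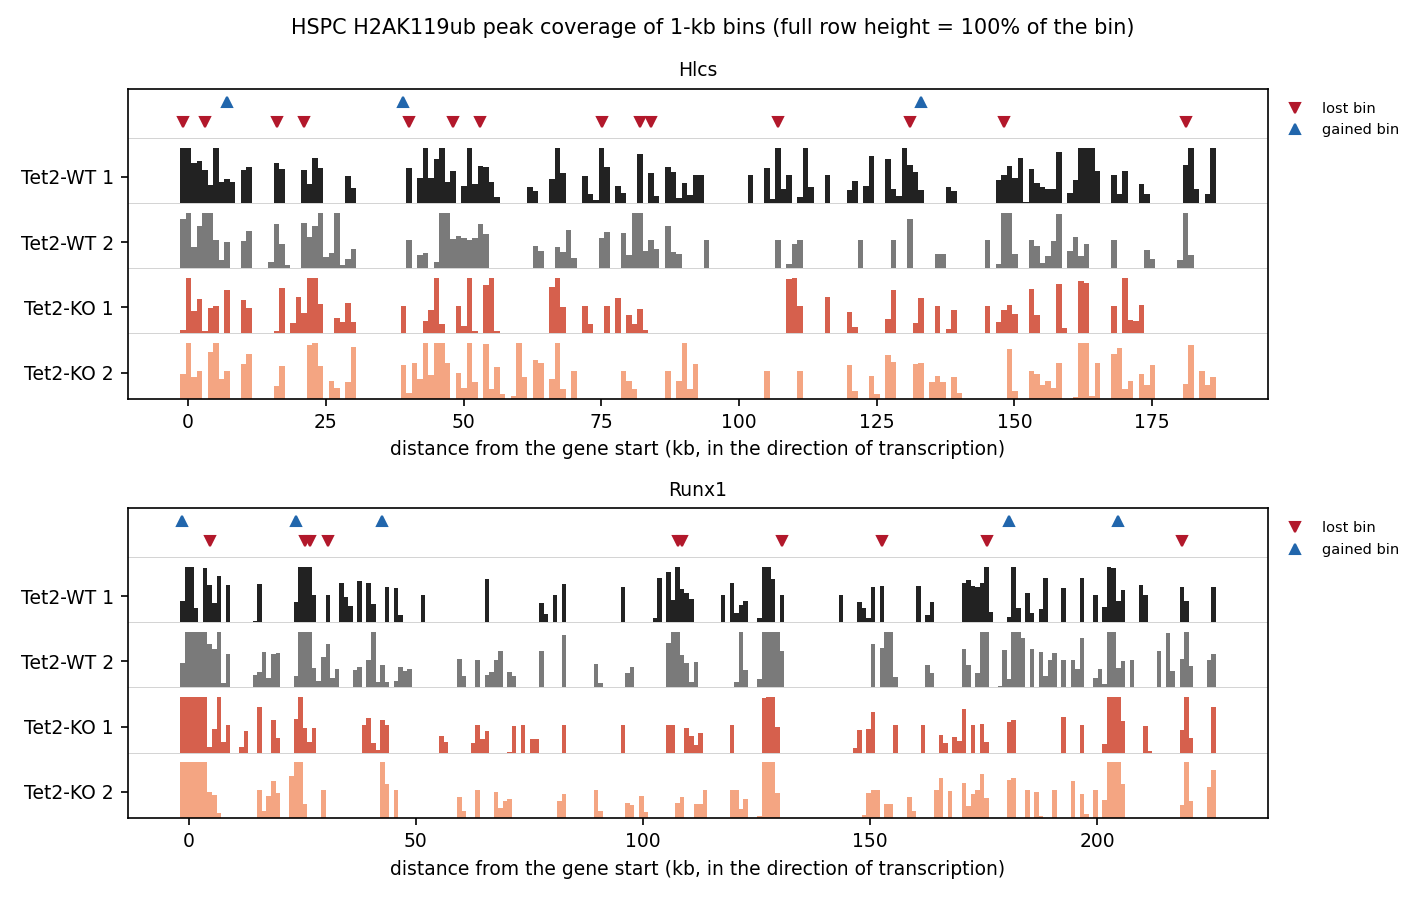
Peak coverage of 1-kb bins (row height, 0 to 100% of the bin) by H2AK119ub in the 4 HSPC libraries along Hlcs (top) and Runx1 (bottom), with distance from the gene start in the direction of transcription (x axis, kb); triangles mark lost and gained bins. The 14 lost bins of Hlcs and the 10 of Runx1 are scattered along the genes, between stretches that all 4 libraries mark.

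Other genes with many lost bins were Cmip and Prkce, with 11 each. Prkce encodes a protein kinase C. Sept9, a septin of the cytoskeleton, and Ralgps1 had 8 each. Those with 7 were Arid1b, a subunit of the SWI/SNF remodelling complex, Abr, Chst11, 2900026A02Rik, Samd4b, Prex1 and Zmiz1. Those with 6 included Lrp5, a Wnt co-receptor, Myh9, the heavy chain of non-muscle myosin, Tex14, Mtss1, Dnah17, Man1c1 and Anks1. The largest share of marked bins lost was in Prpsap1, 6 of 20 (30.0%). Plekho2 lost 5 of 22 (22.7%) and Anp32a 5 of 25 (20%). Anks1 and Plekho2 had no gained bin. Gm37240, with 6, is a gene model of 1391 kb that spans other genes, so its count is uncertain.

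Among genes with more lost than gained bins, the 25 with the most lost bins were compared over the whole gene. In 10 of them H2AK119ub coverage was higher in both WT than in both KO libraries, against 12.1% of genes with a marked bin. The rule chose these genes for such bins, so nothing is read from that. Plekho2 had 51.1% and 54.5% in WT and 35.3% and 35.0% in KO. Myh9 had 53.8% and 61.2% against 36.7% and 48.8%, and Tex14 16.5% and 22.4% against 9.82% and 10.1%. In the other 15 genes the groups overlapped over the gene, as in Hlcs. H3K27me3, which did not choose them, was higher in both WT libraries in 15 of the 25, against a background of 23.5% of genes. All 25 were longer than the median gene with a marked bin, so that background is not matched for length. The comparison was not tested. Among those of the 25 genes that are named here, HSPC H3K27me3 covered at most 14.8% of a gene in a WT library, in 2900026A02Rik.

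Among gene lists written for this tissue, with earlier results of these data known, myeloid differentiation genes had lost bins in 8 of 20 genes with a marked bin and gained bins in 2. Ctsg, the neutrophil protease cathepsin G, lost 2 of its 4 marked bins, both at its promoter. The one over the start was covered to 74.9% and 100% in WT and 0% in both KO libraries, and the other to 100% and 54.8% in WT against 5.40% and 0% in KO. Csf1r, the receptor for macrophage colony-stimulating factor, also had 2. Spi1, Irf8, Egr1, Prtn3, Fcgr3 and Csf3r had 1 each. Of the myeloid genes' marked bins, 5.35% were lost and 1.60% gained, against 2.65% and 4.41% over all protein-coding genes. This lean was not particular to myeloid genes. Widely expressed genes had 6.00% and 2.00%, and AP-1, immediate-early and stress genes 4.41% and 1.47%, while other lists, described below, leaned the other way. The myeloid genes held 10 lost bins, against 2 to 7 bins of each mixed set. In the mixed sets, 2 to 6 of these 20 genes had a bin, with 5 and 6 in the sets that include WT2, so the 8 genes with lost bins lie above that range by 2 genes.

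Stem and progenitor regulators had lost bins in 10 of 27 genes and gained bins in 10, with 28 lost and 27 gained bins in all. The mixed sets touched 9 to 14 of these genes, a range that holds both counts. Fli1, an ETS factor of blood stem cells, held 2 adjoining lost bins in an intron on chromosome 9 (32504001 to 32506000). These were covered to 99.9% and 100% in WT for the first and 100% in both for the second, and to 0% in both KO libraries. Erg, another ETS factor, had 5 lost and 2 gained bins, and the cytokine receptor gene Flt3 had 3 of each. Prdm16, a factor of stem cell maintenance, had 1 lost and 11 gained. Kit, the receptor by which the cells were sorted, had 1 lost bin. Kit's bin was covered to 100% and 56.2% in WT against 45.8% and 0% in KO.

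Developmental Polycomb targets ran the other way. Only Pax7, a muscle and neural crest factor, had a lost bin, 1 of 32 genes, while 13 had gained bins. Of their 481 marked bins 0.208% were lost and 6.44% gained. In the mixed sets 6 to 10 of the 32 genes had a bin. Widely expressed genes had lost bins in 6 of 17 and gained bins in 2, among them Gapdh, whose bin was covered to 100% in both WT libraries and 0% and 44.8% in KO. The mixed sets had up to 6 of these 17 as well. Lymphoid genes had 9 of 22 with lost and 11 with gained bins (8 to 13 in the mixed sets), and erythroid and megakaryocytic genes 2 and 3 of 12 (2 to 4). Tumour suppressor and cell cycle genes had 2 and 3 of 22 (3 to 6). These counts are set beside the background of 21.3% for lost and 30.1% for gained bins and were not tested.

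**Figure D5:**
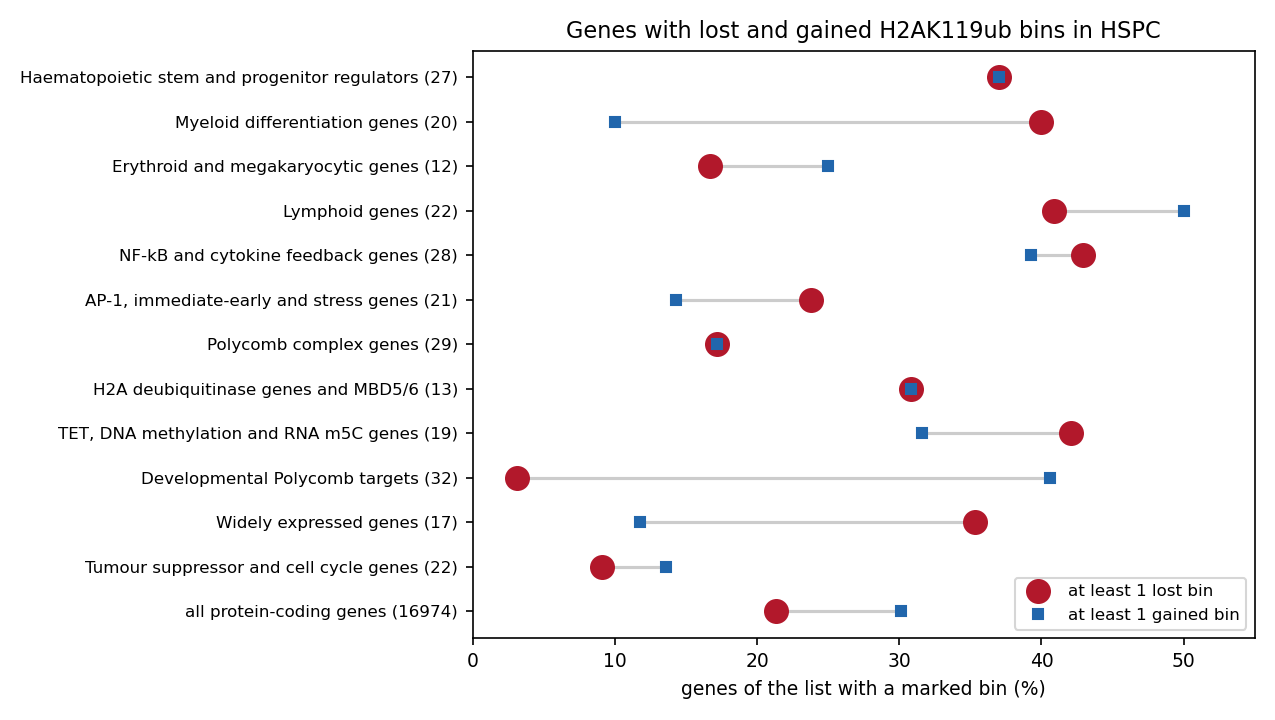
Percentage of the genes of each list with a marked bin (x axis) that have at least 1 lost bin (circles) or at least 1 gained bin (squares); the number of genes with a marked bin is in parentheses. Myeloid genes have lost bins in 8 of 20 and gained bins in 2, and developmental Polycomb targets have lost bins in 1 of 32 and gained bins in 13.

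NF-kB and cytokine feedback genes had lost bins in 12 of 28 genes (42.9%, background 21.3%) and gained bins in 11 (39.3%, background 30.1%). The mixed sets touched 8 to 13 of these genes, so both counts lie inside the range between libraries. Nfkbia, the inhibitor of NF-kB, lost 1 of its 5 marked bins (chromosome 12, 55491001 to 55492000), covered to 71.4% and 100% in WT against 28.5% and 37.1% in KO. Over the gene, coverage was 54.4% and 100% in WT and 32.3% and 36.1% in KO. Nfkb1 had 3 lost bins and Relb 2. Socs3, a cytokine feedback inhibitor, had none. It was covered to 100% in all 4 libraries. Peak coverage at that ceiling cannot show a change in signal. The paper displayed H2AK119ub and accessibility signal around Socs3 and Nfkbia, which peak lists do not hold. AP-1, immediate-early and stress genes had lost bins in 5 of 21 (23.8%), near the background, and gained bins in 3, with 1 to 3 in the mixed sets. Atf3, a stress factor, had 4, and Dusp1, a phosphatase of MAP kinases, 2.

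Genes of the Polycomb and TET pathways had lost bins in numbers within or below the range of the mixed sets. Polycomb complex genes had them in 5 of 29 (17.2%, background 21.3%), with gained bins in 5 and 6 to 9 genes in the mixed sets. Phc2 had 4 lost and 2 gained bins, and Kdm2b 4 lost and 6 gained. Among H2A deubiquitinase genes and MBD5/6, lost bins lay in 4 of 13 genes, gained bins in 4 and bins of the mixed sets in 2 to 4. Mbd6, which the study examined, had 1, over an exon, with 50.1% and 53.1% in WT and 0% and 20.1% in KO, while over the gene the WT libraries were at 84.8% and 92.7% and the KO libraries at 71.8% and 86.1%. Asxl1, a BAP1 partner often mutated in myeloid disease, had 1, and Bap1 had none. TET, DNA methylation and RNA m5C genes had lost bins in 8 of 19, gained bins in 6 and bins of the mixed sets in 4 to 9. Dnmt3a, a de novo DNA methyltransferase, had 2. One of them was covered to 100% in both WT libraries and 6.40% and 0% in KO. Tet3 had 2, and Nsun2, an RNA m5C methyltransferase, 1. Tet2 itself had none and was covered to 0.615% and 1.15% in WT against 2.10% and 2.36% in KO, which does not check the knockout, since peak lists carry no reads over the deletion.

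Lost bins were spread over the genome. They fell in 1236 of 2473 windows of 1 Mb, and by chromosome 7.21% to 11.5% of bins marked in both WT libraries were lost. The highest count was 38, at 116000001 to 117000000 on chromosome 11, where 404 bins were marked in both WT libraries, so that 9.41% were lost. By share, 2 of the 12 windows with the most lost bins stood highest, 26.9% at 36000001 to 37000000 on chromosome 17, which also holds the intergenic run described above, and 25.7% at 117000001 to 118000000 on chromosome 8, where Cmip lies.

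The 4 HSPC H2AK119ub lists held 112734 to 136735 peaks over 138 to 174 Mb of the autosomes. Lists carry no reads, so the depth is unknown, and fewer marked bins cannot be told apart from fewer reads. The genotypes also differed on chromosome X, which the rule leaves out. H2AK119ub peaks covered 0.541 and 0.329 Mb of X in WT and 2.51 and 2.69 Mb in KO, and H3K27me3 peaks 1.05 and 1.07 Mb in WT and 24.3 and 21.7 Mb in KO. On chromosome Y, H2AK119ub peaks covered 22.9 and 27.7 kb in WT and 15.8 and 15.2 kb in KO. The sources used here do not give the sex of the mice in each library, so sex and genotype cannot be told apart. The part of these X and Y differences in the autosomal losses was not tested. As a check of the cell labels, H3K27me3 covered at least 50% of the promoter of 9 of 12 mES-expressed genes in all 4 HSPC libraries and of 2 of 12 in all 4 mES libraries. For 12 HSPC-expressed genes the counts were 4 to 6 in HSPC libraries and 8 or 9 in mES libraries, so some promoters of genes that progenitors use were marked in the HSPC libraries too.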

How the data were processed

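Peak lists from CUT&Tag were taken as deposited, 1 list for each of 16 mouse libraries. Each list gives a chromosome, start and end, and the authors gave no counts, scores or p-values with it. The labels name Trimmomatic 0.39, Bowtie2 2.4.1, HOMER 4.9 and mm10, and the methods name MACS2 in broad mode and a Drosophila spike-in. Between 33.5% and 41.4% of peaks per list were exactly 501 bp wide. The human K562 lists were not used here.

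Autosomes were cut into 1-kb bins, and genes came from GENCODE vM21. Tests were two-sided exact permutation tests over 6 assignments of 4 libraries, with Benjamini-Hochberg adjustment over 6 tests. Interval code (Python 3.11.15, numpy 2.4.6, pandas 2.3.3) was tested on simulated data and checked against bedtools 2.31.1. Named genes were the 25 with the most lost bins (at least 3, and more lost than gained), the 10 longest runs, promoters with a bin at 90% or more in WT and 0% in KO, list members, and 6 genes of the study. One of the 25 genes and 1 of the 10 runs are not reported here. The members and lists were chosen with earlier results of these data known. Alternatives were other coverage rules, bin grids, peak filters, list lengths, windows, libraries left out and a replicate block.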

Additional observations from a re-analysis of the deposited data

How the results depend on the processing

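No alternative moved any of the 6 tests past 0.05, which 2 against 2 libraries cannot reach. With the replicate number as a block, the HSPC H3K27me3 difference stayed -3.10 percentage points (exact sign-flip test, p = 0.5, the smallest it can give); the labels share numbers and do not say that libraries were paired, and the block changed no call. As a ratio of shares, a scale added after the data were seen, the differences relative to retained bins turned to -0.0352 (HSPC H3K27me3) and -0.0359 (mES H3K27me3). Leaving out 1 compared library moved the mES H2AK119ub difference between -0.345 and -4.55 percentage points.

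Sizes depended on construction. In order, the values are the number of lost bins, their promoter share, the genes with at least 3 and the share also lost in mES cells. At least 75% coverage gave 4392, 8.90%, 186 and 7.59%, and 0% coverage in both KO libraries gave 2845, 3.13%, 50 and 11.9%. At least 25% coverage gave a promoter share of 4.51% and 580 genes. Bins of 2 kb gave 2591, 11.2% and 57, and peaks of at least 1 kb gave 4898, 8.35% and 239. Joined peaks gave a promoter share of 5.20% and a promoter window of 2 kb on each side 10.9%. Leaving out 1 HSPC H2AK119ub library gave 16093 to 41678 lost bins, lowest without KO1 and highest without WT2, 4.34% to 7.57% in promoters, 1180 to 3153 genes and 6.21% to 10.3% also lost in mES cells, because fewer libraries must concur. The other 121 recomputed values kept their direction, and among them counts stayed within 1.5 times and shares within their exact 95% binomial interval. Depth is unknown, so the reads behind a lost or kept bin cannot be given.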
